A study of Mus musculus with 17 samples.

Results

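The dorsal neural tube genes described here are Pax3, Pax7, Msx1, Msx2, Msx3, Zic1, Zic5, Olig3, Wnt1 and Gdf7, 10 genes listed by name and found by symbol among the 41709 genes of the deposited expression table. All 10 were measured above 0 in each of 17 libraries, every library holding the RNA of 1 whole C57BL/6J mouse embryo. At embryonic day (E) 9.5 the groups were 4 wild-type embryos (Disp1_WT) and 4 embryos with the CS allele of Disp1 over its INDEL allele (Disp1_CS_INDEL). They came from crosses of Disp1CS/+ females with Disp1INDEL/+ males. At E8.5 the groups were 4 Myo10+/+ embryos (Myo10_WT) and 5 Myo10m1J/m1J embryos (Myo10_m1J), from intercrosses of Myo10m1J/+ animals. Which embryos were littermates is not in the labels. The product of Disp1, Dispatched, is needed for Hedgehog ligand to leave the cells that make it. The product of Myo10 is an unconventional myosin that moves along filopodia and gathers at their tips. By its title, the series is about how morphogen comes to be carried on cytonemes, filopodia that take signals from cell to cell.

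The neural tube is patterned along its dorsal to ventral axis by opposing signals. Sonic hedgehog from the notochord and floor plate acts ventrally, while BMP and Wnt ligands from the surface ectoderm and the roof plate act dorsally. Hedgehog is known to hold back several dorsal genes, among them Pax3, Pax7 and Msx genes, in the ventral tube. Among the 10 genes, Wnt1 and Gdf7 encode secreted signals of the dorsal midline. Gdf7 is a BMP-family ligand of the roof plate, and Wnt1 is made by the roof plate and the midbrain. Pax3 and Pax7 are paired-box transcription factors of dorsal progenitors, the dermomyotome and the neural crest. Msx1, Msx2 and Msx3 are homeobox factors downstream of BMP. Zic1 and Zic5 are zinc-finger factors of the dorsal tube, and Olig3 is a basic helix-loop-helix factor of the most dorsal interneuron progenitors. Most of these genes are also active elsewhere: Msx1 and Msx2 in limb bud, facial mesenchyme and surface ectoderm, Pax3 in somites. Values from whole embryos therefore add all these sites together, and fewer cells of a type cannot be told apart from less RNA per cell.

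Values are TPM, a measure of transcript abundance corrected for transcript length and scaled to the same total in each library. Because read depth cannot be recovered from TPM, it is unknown here, and no counting interval is given. Myo10 was at 19.9 to 33.9 TPM in Myo10_WT and 2.16 to 4.35 TPM in Myo10_m1J. Disp1 was at 15.3 to 19.3 TPM in Disp1_WT and 11.6 to 16.3 TPM in Disp1_CS_INDEL, which overlap, so its level does not check those labels. Several libraries stood apart. At E9.5, Disp1_WT 3 and Disp1_CS_INDEL 1 (the number is the replicate) were low in transcripts of the tail bud, with means over 9 tail bud genes of 0.96 and 1.17 on the log2(TPM + 1) scale against 3.32 to 4.02 in the other 6. Disp1_WT 3 also carried 551 TPM of Prl8a2, a prolactin-family gene of the decidua, against 1.70 to 19.2 TPM in the other E9.5 embryos. At E8.5, Myo10_WT 1 had the lowest tail bud mean, 2.92 against 3.82 to 5.15, and the highest mean over 9 neural crest genes, 3.38 against 1.78 to 2.83. Myo10_m1J 2 had the highest mean over 7 yolk sac and decidua genes, 7.02 against 4.51 to 6.09 in the other E8.5 embryos. Within Myo10_m1J, Prl8a2 reached 146.5 TPM, with a group median of 0.24 TPM. Structural RNAs (Rn7s1, Rn7s2, 7SK_159, Rmrp_1 and Rpph1) took 0.0048 to 0.0132% of the TPM at E9.5 and 29.7 to 44.5% at E8.5.

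The genes differed widely in level, and their order changed between the ages. In Disp1_WT, Msx1 was the most abundant at 75.9 ± 3.84 TPM (SD, n = 4), followed by Zic1 at 41.1 ± 4.07 TPM (SD, n = 4). Msx2, Msx3, Olig3, Pax3 and Wnt1 came next in a run in which each neighbour's range overlapped the following one, from 30.2 down to 15.8 TPM. Zic5 and Pax7 also overlapped, and Gdf7 was the lowest at 1.95 ± 0.465 TPM (SD, n = 4). In Disp1_CS_INDEL the order was the same except that Msx3, at 35.6 TPM, stood before Msx2, at 32.8 TPM, with overlapping ranges. At E8.5 Msx1 was again first and Gdf7 last in both groups. Zic1, the second gene at E9.5, was ninth at E8.5. Msx2 was second at E8.5, and all neighbours from Pax3 downwards had overlapping ranges there.

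**Figure D1:**
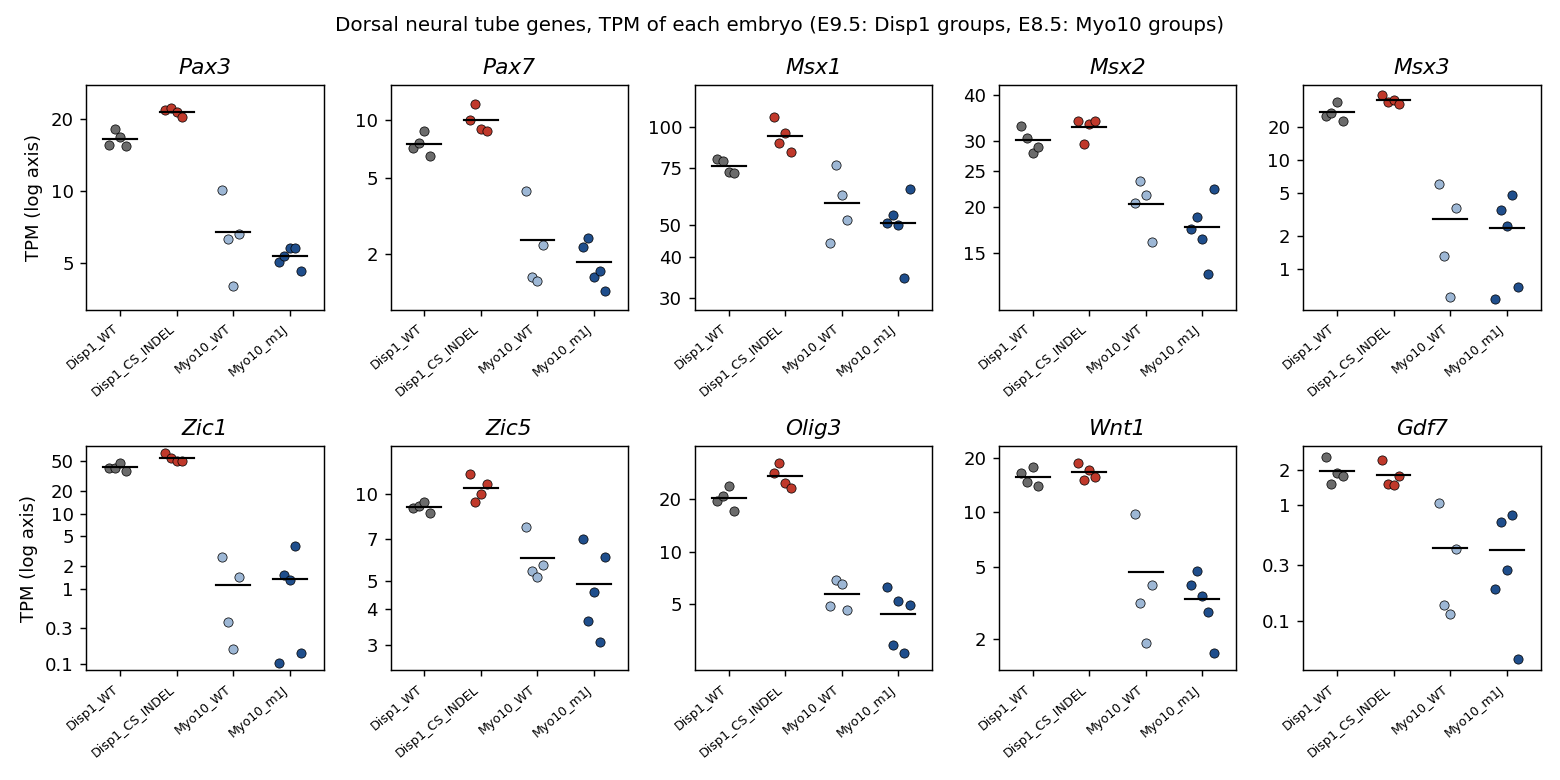
TPM of each of the 10 genes on a log axis, 1 panel per gene, with 1 point per embryo in the 4 groups and a bar at the group mean. Pax3 in the 4 Disp1_CS_INDEL embryos sits between 20.3 and 22.1 TPM, above the 15.4 to 18.1 TPM of Disp1_WT, and Zic1 at E8.5 runs from 0.104 to 3.70 TPM.

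The Disp1 comparison asks how the dorsal genes stand when the gene for Hedgehog release is mutated. Of the 10 genes, 9 had a higher mean in Disp1_CS_INDEL than in Disp1_WT, by up to 1.34-fold, and none passed the test across all genes. For the dorsal progenitor factors Pax3, Pax7, Zic1 and Zic5 and the BMP-responsive Msx1, every mutant embryo was above every wild-type embryo, narrowly so for Pax7 and Zic5. The groups overlapped for Olig3, also a dorsal progenitor factor, and for Msx2 and Msx3, also downstream of BMP. The midline signals Wnt1 and Gdf7 differed by less than the spread between embryos.

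Pax3 was at 15.5, 18.1, 16.8 and 15.4 TPM in the 4 Disp1_WT embryos and at 21.6, 22.1, 21.3 and 20.3 TPM in the 4 Disp1_CS_INDEL embryos. All 4 mutant embryos lay above the wild-type range. The ratio of the means was 1.30-fold, and limma gave a log2 fold change of 0.36 ± 0.068 (SE) with an adjusted p of 0.339. Pax3 lies on chromosome 1, as Disp1 does, and Wnt1 on chromosome 15, as Myo10 does. Its paralogue Pax7 was at 7.11, 7.60, 8.76 and 6.48 TPM in Disp1_WT and at 9.98, 12.2, 8.97 and 8.80 TPM in Disp1_CS_INDEL. The groups did not overlap, though the highest wild-type embryo, at 8.76 TPM, was close to the lowest mutant embryo, at 8.80 TPM. The log2 fold change of Pax7 was 0.37 ± 0.12 (SE), with a limma adjusted p of 1.

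Zic1 was at 39.8, 40.7, 46.7 and 37.1 TPM in Disp1_WT and at 63.7, 54.1, 49.5 and 50.2 TPM in Disp1_CS_INDEL. The groups did not overlap, and Disp1_CS_INDEL 1 was the highest of the 8. The difference was 1.32-fold, a log2 fold change of 0.39 ± 0.092 (SE), with a limma adjusted p of 0.793. Zic5 was at 8.93, 9.13, 9.37 and 8.63 TPM in Disp1_WT and at 11.8, 9.39, 9.98 and 10.8 TPM in Disp1_CS_INDEL. Its ranges met almost exactly, with 9.37 TPM the highest wild-type value and 9.39 TPM the lowest mutant one. The log2 fold change was 0.19 ± 0.080 (SE), with a limma adjusted p of 1.

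The 3 Msx genes did not stand alike. Msx1 was at 79.7, 78.7, 72.8 and 72.4 TPM in Disp1_WT and at 107.5, 89.5, 95.6 and 83.6 TPM in Disp1_CS_INDEL. Its groups did not overlap, with a log2 fold change of 0.30 ± 0.075 (SE) and a limma adjusted p of 0.907. Msx3, the member of the family whose expression is largely restricted to the dorsal neural tube, was at 25.4, 27.2, 34.4 and 23.0 TPM in Disp1_WT and at 39.5, 34.3, 35.7 and 32.8 TPM in Disp1_CS_INDEL. Its ranges overlapped through Disp1_WT 3, the library with 34.4 TPM, and the log2 fold change was 0.37 ± 0.11 (SE) with a limma adjusted p of 1. Msx2 was at 33.1, 30.7, 28.0 and 29.0 TPM in Disp1_WT and at 34.1, 29.5, 33.5 and 34.0 TPM in Disp1_CS_INDEL. These ranges overlapped over most of their length, and the log2 fold change of Msx2 was 0.12 ± 0.071 (SE) with a limma adjusted p of 1.

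Olig3 had the largest ratio of the 10, 1.34-fold. It was at 19.5, 20.8, 23.9 and 17.1 TPM in Disp1_WT and at 28.4, 32.4, 24.9 and 23.3 TPM in Disp1_CS_INDEL. Again Disp1_WT 3, at 23.9 TPM, was the only wild-type embryo inside the mutant range, and the log2 fold change was 0.40 ± 0.12 (SE) with a limma adjusted p of 1. Wnt1 was at 16.4, 14.7, 17.9 and 14.0 TPM in Disp1_WT and at 18.7, 15.2, 17.2 and 15.6 TPM in Disp1_CS_INDEL. The values interleaved, with a log2 fold change of 0.08 ± 0.093 (SE) and a limma adjusted p of 1. Gdf7 was at 2.61, 1.52, 1.88 and 1.79 TPM in Disp1_WT and at 2.44, 1.53, 1.48 and 1.80 TPM in Disp1_CS_INDEL. It was the only one of the 10 with a lower mean in the mutant group, 93.0% of the wild-type mean, and its log2 fold change was -0.07 ± 0.14 (SE) with a limma adjusted p of 1.

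As a list, 0 of the 10 genes passed an adjusted p of 0.05 in limma, where 0.00752% of the 13294 genes tested passed as higher and 0.0226% as lower. At an unadjusted limma p under 0.05, 7 of the 10 were higher and 0 lower, against 1.03% of all genes higher and 1.23% lower. The groups did not overlap for 5 of the 10 genes, all higher in Disp1_CS_INDEL, against 0.895% of all genes higher and 0.654% lower. The 10 genes and the lists below were chosen with earlier results of these data known. Their counts are therefore descriptions and not independent support. The median log2 fold change of the 10 genes was 0.33, and that of all genes tested was 0.01. Without Disp1_WT 3 and Disp1_CS_INDEL 1, the pair low in tail bud transcripts, 7 of the 10 genes did not overlap between 3 and 3 embryos, all higher in the mutant group, and none passed limma. In that smaller comparison 2.16% of 13085 genes did not overlap as higher and 4.33% as lower. Msx3 and Olig3 were the genes gained, at 1.36-fold and 1.40-fold, and the median log2 fold change was 0.29.

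**Figure D2:**
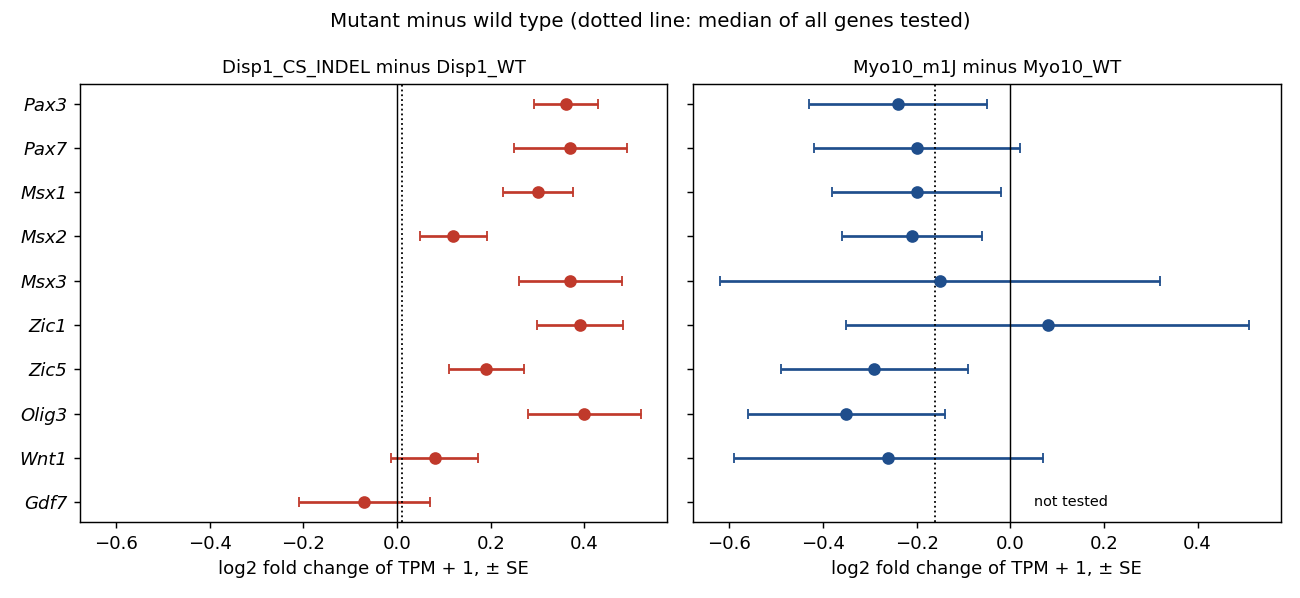
Log2 fold change of TPM + 1 with its standard error for the 10 genes, in Disp1_CS_INDEL against Disp1_WT at E9.5 and in Myo10_m1J against Myo10_WT at E8.5, with a solid line at 0 and a dotted line at the median of all genes tested. In the Disp1 comparison 9 of the 10 points are above 0, from 0.08 to 0.40, with Gdf7 at -0.07, while in the Myo10 comparison the points run from -0.35 to 0.08.

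Other genes of the dorsal tube were read from lists that did not hold the 10. Of 10 other roof plate genes, all tested, 9 had positive and 1 had a negative log2 fold change in the Disp1 comparison, with a median of 0.19 and none called. The groups did not overlap for 1 of these 10, higher, against 0.895% of all genes. At an unadjusted limma p under 0.05, 3 were higher, against 1.03% of all genes. Among those with the smallest p-values were Rspo1, an amplifier of Wnt signalling (log2 fold change 0.26), and Zic2, a zinc-finger factor (0.24). Of 16 other genes of dorsal progenitors and their neurons, 15 were tested, 12 positive and 3 negative, with a median of 0.18 and none called. The groups overlapped for each of the 15, and 2 were higher at an unadjusted limma p under 0.05, against the same 1.03%. Pou4f1, Atoh1 and Tlx3, transcription factors of dorsal neurons and their progenitors, had log2 fold changes of 0.33, 0.45 and 0.38. Genes of the signals themselves lay closer to 0. The median was 0.05 over 11 BMP ligands and response genes, with Id3 at 0.13, Bmp2 at -0.23 and Id4 at 0.22. It was 0.06 over 9 Wnt response genes, with Axin2 at 0.18, Rnf43 at 0.13 and Tcf7 at 0.09.

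The ventral genes stood on the other side of 0. Of 9 ventral genes, 8 were lower and 1 was higher in Disp1_CS_INDEL, with a median log2 fold change of -0.53. For 5 of the 9 the groups did not overlap, all lower, against 0.654% of all genes. Nkx2-9 (log2 fold change -0.99, limma adjusted p = 0.0209) and Nkx2-2 (-0.76, limma adjusted p = 0.0476), homeobox genes of the ventral progenitors, fell past the test. With each of the 8 embryos left out in turn Nkx2-9 still passed 2 times, without Disp1_WT 3 or Disp1_CS_INDEL 1, and Nkx2-2 in 0 of the 8 (limma adjusted p from 0.0566 to 0.321). The 8 intermediate genes had a median of 0.05 with none called, and Dbx2, Irx3 and Prdm12 were at -0.15, 0.11 and 0.17. The 6 pan-neural genes, which mark neural progenitors at all levels, had a median of -0.03 with none called, and Sox1, Fabp7 and Sox3 were at -0.07, 0.24 and -0.07.

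The mean of the 10 genes was also set against these lists within each embryo, as a difference of mean log2(TPM + 1). Against the ventral genes it was 0.37 to 0.51 in Disp1_WT and 1.13 to 1.24 in Disp1_CS_INDEL. Against the intermediate genes it was 0.49 to 0.52 in Disp1_WT and 0.65 to 0.85 in Disp1_CS_INDEL, and against the pan-neural genes -2.18 to -2.11 and -2.04 to -1.76. Each of the 3 differences separated the 8 embryos without overlap, and the first holds the lower ventral genes as well as the higher dorsal ones. These are descriptions of chosen lists, with no test. In the E8.5 groups the same differences overlapped, with 0.51 to 0.84 in Myo10_WT and 0.42 to 0.83 in Myo10_m1J against the ventral genes.

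**Figure D3:**
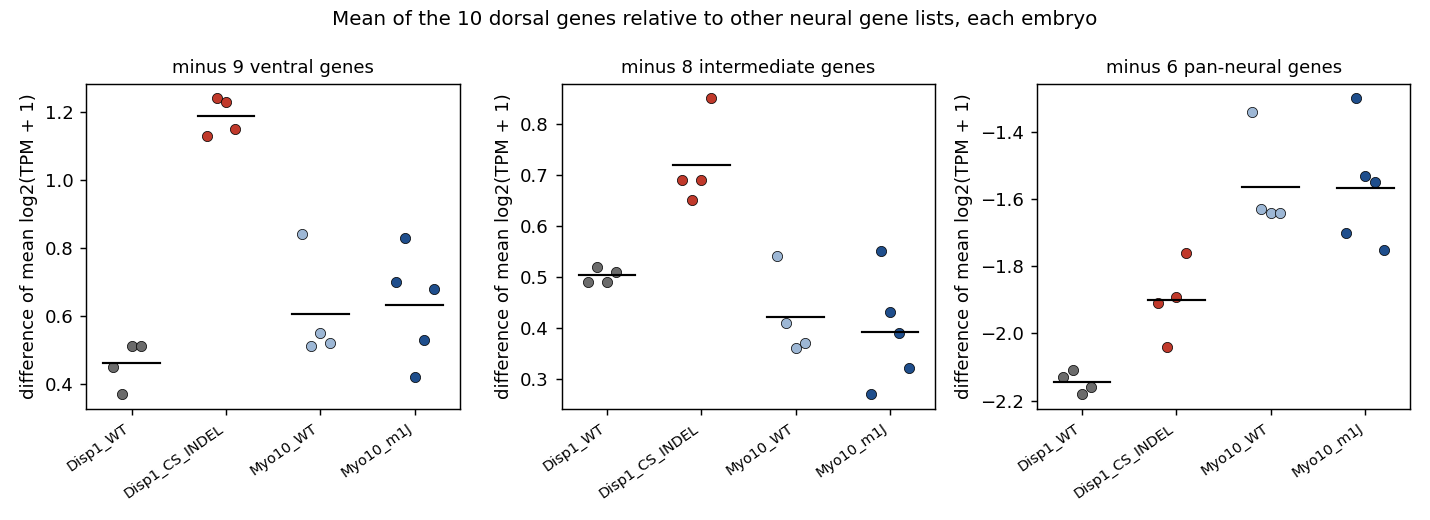
Mean log2(TPM + 1) of the 10 dorsal genes minus that of 9 ventral, 8 intermediate and 6 pan-neural genes, 1 point per embryo and a bar at each group mean, on axes that do not start at 0. Against the ventral genes the 4 Disp1_CS_INDEL embryos lie at 1.13 to 1.24 and the 4 Disp1_WT embryos at 0.37 to 0.51, while the E8.5 groups overlap in all 3 panels.

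Markers of other tissues that express some of the 10 genes were read in the same comparison. Of 11 genes of arch and limb mesenchyme, where Msx1 and Msx2 are active, 9 were positive and 2 negative, with a median of 0.11. For 3 of them the groups did not overlap, all higher, against 0.895% of all genes. None was called, and Prrx1, Alx4 and Prrx2 were at 0.27, 0.22 and 0.11. Of 9 neural crest genes, 6 were positive and 3 negative, with a median of 0.08 and Tfap2b, Sox10 and Foxd3 at 0.24, 0.22 and 0.20. The groups did not overlap for 1 of them, higher, against the same 0.895%, and none was called. Of 9 dermomyotome and myotome genes, 8 were tested, 4 in each direction, with a median of -0.05 and Myf6 and Meox1 at -0.23 and -0.11, none called. Of 8 surface ectoderm genes, 3 were positive and 5 negative, with a median of -0.07 and Cdh1, Krt8 and Krt18 at -0.22, -0.31 and -0.24. The groups did not overlap for 2 of them, both lower, against 0.654% of all genes, and none was called. The part of these tissues in the values of the 10 genes was not tested.

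The Myo10 comparison asks the same of E8.5 embryos without wild-type Myo10. None of the dorsal genes separated the groups. Of the 10 genes, 9 were tested, since Gdf7 reached 1 TPM in only 1 of the 9 embryos, and 0 passed limma, where 0% of 12560 genes passed as higher and 0.00796% as lower. At an unadjusted p under 0.05 the count was 0 of 9, against 0.342% of all genes higher and 6.46% lower. The groups overlapped for each of the 10 genes, against 0.0318% of genes without overlap as higher and 0.963% as lower.

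Pax3 was at 10.1, 6.31, 3.99 and 6.62 TPM in Myo10_WT and at 5.06, 5.36, 5.78, 5.78 and 4.65 TPM in Myo10_m1J. Myo10_WT 1 was the highest of the 9, 3 of the 4 wild types lay above every mutant embryo, and Myo10_WT 3 was the lowest. The log2 fold change of Pax3 was -0.24 ± 0.19 (SE), with a limma adjusted p of 0.485. Pax7 was at 4.27, 1.53, 1.44 and 2.24 TPM in Myo10_WT and at 2.19, 2.44, 1.52, 1.64 and 1.29 TPM in Myo10_m1J. Myo10_WT 1 was again the highest embryo, and the log2 fold change of Pax7 was -0.20 ± 0.22 (SE) with a limma adjusted p of 0.547. Olig3, at 4.88, 6.86, 6.57 and 4.63 TPM in Myo10_WT and 6.33, 2.94, 5.24, 2.62 and 4.98 TPM in Myo10_m1J, had the change farthest from 0. It was -0.35 ± 0.21 (SE), with a limma adjusted p of 0.473, and 3 of the 5 mutant embryos lay inside the wild-type range.

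Msx2 ran from 16.1 to 23.5 TPM in Myo10_WT and from 13.2 to 22.4 TPM in Myo10_m1J, and Zic5 from 5.18 to 7.70 and from 3.06 to 7.01 TPM. The log2 fold changes of the tested genes other than Olig3 lay between -0.29 (Zic5) and 0.08 (Zic1), and the median of the 9 was -0.21 where that of all genes tested was -0.16. After median-of-ratios scaling, which aligns the median gene of the libraries, the median of all genes was 0.01 and the log2 fold changes of the 9 genes ran from -0.19 to 0.20, with a median of -0.06. Without Myo10_WT 1 the median of the members tested was -0.05, and without Myo10_WT 3 it was -0.33 and Pax3 no longer overlapped. The neighbouring lists were also uncalled. Their medians were -0.33 for the other roof plate genes, -0.27 for the dorsal progenitor and neuron genes, -0.36 for the ventral genes and -0.32 for the intermediate genes.

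Several of the genes ranged widely among the E8.5 embryos of each group. Zic1 ranged 16.2-fold across the 4 Myo10_WT embryos and 35.7-fold across the 5 Myo10_m1J embryos, whereas no gene of the 10 ranged more than 1.72-fold within an E9.5 group. Zic1 was at 2.62, 0.365, 0.162 and 1.42 TPM in Myo10_WT and at 0.104, 1.55, 1.32, 3.70 and 0.139 TPM in Myo10_m1J. Its values thus fell into a low range of 4 embryos and a high range of 5, each holding embryos of both genotypes. Msx3 was at 6.03, 1.32, 0.552 and 3.59 TPM in Myo10_WT and at 0.525, 3.50, 2.46, 4.75 and 0.673 TPM in Myo10_m1J. The 4 embryos lowest in Zic1 were also the 4 lowest in Msx3. Gdf7 was at 1.04, 0.137, 0.114 and 0.419 TPM in Myo10_WT and at 0.189, 0.720, 0.277, 0.823 and 0.0464 TPM in Myo10_m1J, and the same 4 embryos were its lowest.

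Wnt1 followed another order. It was at 9.80, 3.14, 1.89 and 3.94 TPM in Myo10_WT and at 3.98, 4.74, 3.43, 2.80 and 1.67 TPM in Myo10_m1J, with Myo10_WT 1 far above the next embryo. Msx1 was at 44.0, 76.3, 61.9 and 51.9 TPM in Myo10_WT and at 50.9, 53.7, 50.1, 34.5 and 64.5 TPM in Myo10_m1J. Its lowest embryos, Myo10_m1J 4 and Myo10_WT 1, were the highest in Msx3 and Zic1.

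These relations were computed across the 9 E8.5 embryos on the log2(TPM + 1) scale, 95 in all, between pairs of the genes and between each gene and list means, with exact two-sided permutation tests. The relations were chosen after values were seen, so their p-values are descriptions and not independent support. Both genotypes were pooled, since neither holds the 6 embryos a separate value needs. Of the 95, 9 had an adjusted p under 0.05 for both Pearson's r and Spearman's rho, all positive, and those with Zic1 are left as the values above because its levels fall into separate ranges. Msx3 and Gdf7 were lowest in the same 4 embryos as Zic1, so their relations below may reflect that split of embryos more than a graded relation. Gdf7 also reached 1 TPM only in Myo10_WT 1. Msx3 and Gdf7 had r = 0.92 and rho = 0.87 (exact permutation p = 0.000783 and 0.00451, adjusted 0.0104 and 0.0428), and r = 0.95 without the 2 embryos farthest from the median of Msx3. Pax7 and Wnt1 had r = 0.95 and rho = 0.92 (exact permutation p = 4.41e-05 and 0.00131, adjusted 0.00399 and 0.0249), and r = 0.82 without 2 embryos.

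Markers of other cells moved with these genes. Msx3 and the mean of the 9 neural crest genes had r = 0.92 and rho = 0.90 (exact permutation p = 0.000168 and 0.00203, adjusted 0.00399 and 0.0321), and r = 0.89 without 2 embryos. Gdf7 and the neural crest mean had r = 0.91 and rho = 0.95 (exact permutation p = 0.000146 and 0.000353, adjusted 0.00399 and 0.0112), and r = 0.90 without 2 embryos. In this way a signal of the roof plate and a factor of the dorsal tube each went with the neural crest list. The neural crest mean was itself lowest, at 1.78 to 2.29, in the 4 embryos lowest in Zic1, Msx3 and Gdf7. In the other 5 it was 2.46 to 3.38, so both relations may describe that same split of embryos again. Pax3 went with the ventral mean, at r = 0.87 and rho = 0.92 (exact permutation p = 0.000854 and 0.000981, adjusted 0.0104 and 0.0233), and r = 0.93 without 2 embryos. Pax3 and the pan-neural mean had r = 0.91 and rho = 0.86 (exact permutation p = 0.000948 and 0.00438, adjusted 0.0104 and 0.0428), but r = 0.70 without 2 embryos. Msx1 and the tail bud mean had rho = 0.97 and r = 0.78, of which only the rank correlation passed the adjustment (exact permutation p = 0.000165 and 0.0137, adjusted 0.0112 and 0.0542). Msx3 and the Y-linked mean had r = 0.77 and rho = 0.55 (exact permutation, adjusted p = 0.0871 and 0.263), and Gdf7 and the Y-linked mean r = 0.79 and rho = 0.53 (exact permutation, adjusted p = 0.0710 and 0.280), none past the adjustment. The Y-linked mean was 0.01 to 0.11 in the 4 embryos lowest in Zic1, Msx3 and Gdf7. Of the other 5, it was 3.19 to 3.63 in 4 and 0 in Myo10_WT 4. All these values share a library, and the part of each marker list in the spread of the genes was not tested.

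**Figure D4:**
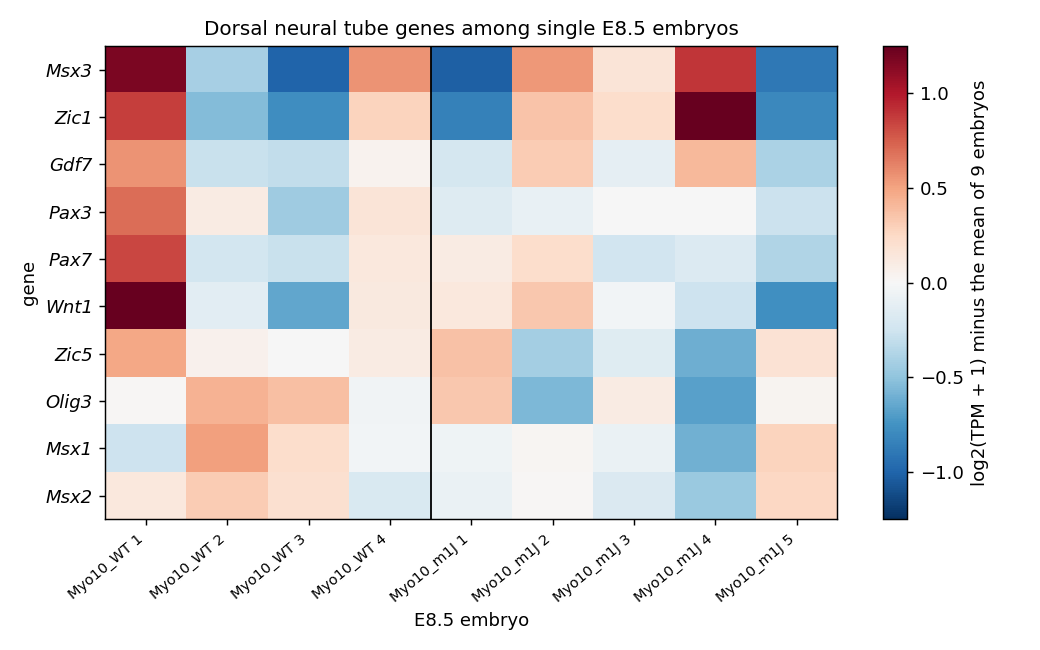
Heat map of the 10 genes (rows) in the 9 E8.5 embryos (columns, with a line between the genotypes), coloured by log2(TPM + 1) minus the gene's mean over the 9 embryos, red above and blue below it. Msx3, Zic1 and Gdf7 are below their means in Myo10_WT 2, Myo10_WT 3, Myo10_m1J 1 and Myo10_m1J 5, and Msx1 is lowest in Myo10_m1J 4, at 34.5 TPM.

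The sequences just before the start sites are printed for Zic1 and Msx3, which were low in the same E8.5 embryos, for Msx1, which was lowest where they were highest, and for Olig3, the gene with the largest ratio in the Disp1 comparison. They come from RefSeq on GRCm38.p6, a build other than the authors' GRCm39, which held 9 of the 10 genes by symbol. Pax3 is the member not matched. Each is the 250 bases upstream of the annotated start, 5′ to 3′ on the strand of the gene. The positions are chr9:91365769-91366018 on the minus strand for Zic1, chr7:140049089-140049338 on the minus strand for Msx3, chr5:37824586-37824835 on the minus strand for Msx1 and chr10:19356289-19356538 on the plus strand for Olig3. Capitals mark matches, on either strand, to any of the 8 short motifs listed after them.
Zic1: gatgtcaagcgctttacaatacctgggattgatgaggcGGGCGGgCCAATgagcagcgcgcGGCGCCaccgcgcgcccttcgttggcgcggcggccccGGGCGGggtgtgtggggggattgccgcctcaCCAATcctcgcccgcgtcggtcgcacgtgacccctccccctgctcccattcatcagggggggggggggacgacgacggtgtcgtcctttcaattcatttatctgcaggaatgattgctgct
Msx3: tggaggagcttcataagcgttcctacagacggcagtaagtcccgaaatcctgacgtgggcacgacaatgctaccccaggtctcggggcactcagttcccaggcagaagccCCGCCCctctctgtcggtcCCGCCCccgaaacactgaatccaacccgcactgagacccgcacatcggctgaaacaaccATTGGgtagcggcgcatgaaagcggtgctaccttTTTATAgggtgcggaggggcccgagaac
Msx1: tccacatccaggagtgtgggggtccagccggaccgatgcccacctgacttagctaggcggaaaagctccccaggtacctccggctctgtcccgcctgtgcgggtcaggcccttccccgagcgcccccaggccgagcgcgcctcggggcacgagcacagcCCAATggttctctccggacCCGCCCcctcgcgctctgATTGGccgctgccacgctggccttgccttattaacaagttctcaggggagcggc
Olig3: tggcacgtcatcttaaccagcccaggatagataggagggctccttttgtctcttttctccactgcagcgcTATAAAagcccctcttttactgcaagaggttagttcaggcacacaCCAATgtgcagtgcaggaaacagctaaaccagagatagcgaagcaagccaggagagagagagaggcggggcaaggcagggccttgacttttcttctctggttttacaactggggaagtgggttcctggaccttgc

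The motifs were searched on both strands in these windows and in the same window of all 32851 promoters of the table. The GLI core GACCACCCA was in 0 of the 9 promoters and 0.225% of all, the TCF/LEF core TCAAAG in 0 of 9 and 13.8%, and the E-box CAGCTG in 0 of 9 and 13%. The SMAD motif GGCGCC was in 1 (Zic1) against 9.6% of all, and the homeodomain core TAATTA in 1 (Msx2) against 4.8%. General promoter motifs were more frequent: CCAAT in 5 of 9 against 33.8%, the SP/KLF motif GGGCGG in 7 of 9 against 32.7%, and TATAAA in 2 of 9 (Msx3 and Olig3) against 12.4%. In Zic1 the pairs of GGGCGG and CCAAT matches flank the SMAD match. In Msx3 the TATAAA match begins 28 bases before the start but lies on the strand opposite the gene, whose own strand reads TTTATA there. A match describes the letters only, and a motif missing from this window says nothing about the factor. The windows were rich in G and C. Zic1 had 66.0% GC and 27 CpG dinucleotides, Msx3 60.0% and 18, Msx1 68.0% and 20, and Olig3 51.6% and 4, where the medians of all promoters were 52.4% and 6. Of the 9 promoters, 8 were above each median, with Olig3 the exception.

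Between the wild types, E9.5 against E8.5, the dorsal genes parted into those that were far higher at E9.5 and those that were not once the libraries were scaled. On TPM as deposited, 10 of 10 passed limma as higher at E9.5, where 69.4% of the 13397 genes tested also did and 10.2% passed as lower. The 10 include Zic1, Msx3 and Gdf7, which passed the filter only through the E9.5 embryos, where they are high. The groups did not overlap for 9 of the 10, with Msx1 the exception, against 66.1% of all genes higher and 7.96% lower. The median log2 fold change of the 10 was 1.31, and that of all genes 0.62. The structural RNAs took 29.7 to 36.9% of the TPM in Myo10_WT and 0.0048 to 0.0112% in Disp1_WT, so values as deposited and values after scaling are both given. The age, the experiment and the litters differ together here and cannot be told apart.

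Zic1 had the largest difference, from 1.14 ± 1.13 TPM (SD, n = 4) to 41.1 ± 4.07 TPM (SD, n = 4), 36.0-fold. Its log2 fold change was 4.44 ± 0.30 (SE) with a limma adjusted p of 2.04e-07, and 3.96 after scaling. Msx3 was next, from 2.87 ± 2.47 to 27.5 ± 4.90 TPM (SD, n = 4 each), 9.57-fold. Its log2 fold change was 3.10 ± 0.39 (SE) with a limma adjusted p of 1.98e-05, and 2.56 after scaling. Both genes also ranged widely among the E8.5 embryos. Msx3 reached 1 TPM in 3 of the 4 E8.5 wild types, Zic1 in 2 of 4 and Gdf7 in 1 of 4, so these 3 genes passed the filter only through the E9.5 embryos, where they are high. Their p-values and their part in the counts are therefore descriptions and not support.

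Wnt1, Olig3, Pax7, Pax3 and Gdf7 formed a middle group. Wnt1 was 3.36-fold higher at E9.5 (log2 fold change 1.73, and 1.15 after scaling) and Olig3 3.55-fold (1.67 and 1.05). Pax7 was 3.16-fold higher (1.40 and 0.87), Pax3 2.44-fold (1.23 and 0.61) and Gdf7 4.58-fold (1.08 and 0.78). For Gdf7 the ratio of means exceeds what the log2 change of TPM + 1 gives, because 3 of its 4 E8.5 values are below the added 1.

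Msx1, Msx2 and Zic5 differed least and changed sign with the scaling. Their log2 fold changes were 0.40, 0.55 and 0.53 as deposited, with limma adjusted p of 0.0217, 9.72e-04 and 0.00236. After scaling they were -0.27, -0.10 and -0.07, with limma adjusted p of 0.153, 0.384 and 0.516. After scaling 7 of the 10 passed as higher and 0 as lower, against 36.4% of all genes higher and 36.2% lower. The 7 include Zic1, Msx3 and Gdf7, which on TPM as deposited passed the filter only through the E9.5 embryos. The groups then did not overlap for 5 of the 10, all higher at E9.5, against 34.1% of all genes higher and 33.2% lower. Zic1 and Msx3 are among these 5, so both counts are descriptions.

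**Figure D5:**
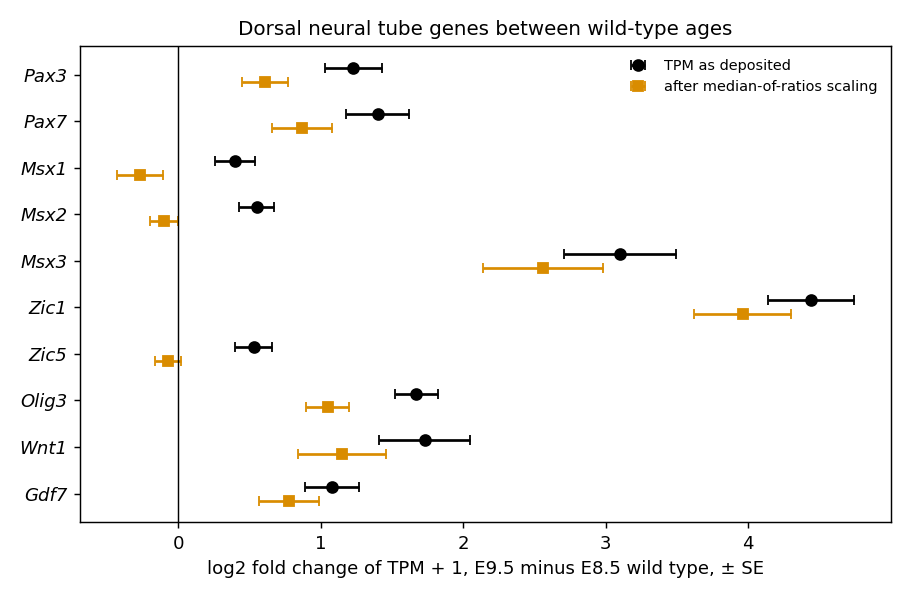
Log2 fold change of TPM + 1 between the wild types, E9.5 minus E8.5, with standard errors, for each of the 10 genes as deposited and after median-of-ratios scaling. Zic1 and Msx3 lie farthest right on both scales, and Msx1, Msx2 and Zic5 cross from 0.40, 0.55 and 0.53 to -0.27, -0.10 and -0.07.

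The neighbouring lists are given on TPM as deposited, where the median of all genes was 0.62. Among the other roof plate genes the median was 0.59 and 5 of 10 were called higher, against 69.4% of all genes. Rspo1 at 1.95, Lmx1a at 1.42 and Zic4 at 1.37 were among those called. Among the other dorsal progenitor and neuron genes the median was 1.70 and 11 of 13 were called higher, against the same 69.4%. The medians were 1.75 for the ventral genes, 1.28 for the intermediate genes, 2.21 for the pan-neural genes and -1.88 for the tail bud genes. The 10 dorsal genes thus had a median below those of the ventral and the pan-neural genes, and the difference between the lists was not tested.

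The effects of the 2 mutations were compared in a fit of all 17 libraries, as the Disp1 difference at E9.5 minus the Myo10 difference at E8.5. None of the 10 genes passed limma, where 0.0144% of the 13910 genes tested passed as higher and 0.00719% as lower. At an unadjusted p under 0.05, 3 of the 10 were higher, against 4.69% of all genes higher and 0.266% lower. They were Olig3 (difference of log2 fold changes 0.75 ± 0.27 SE, limma adjusted p = 0.586), Pax3 (0.60 ± 0.22 SE, limma adjusted p = 0.586) and Msx1 (0.50). The other differences ran from -0.06 for Gdf7 to 0.57 for Pax7. The median was 0.49 where that of all genes was 0.16, and after scaling it was 0.31 where that of all genes was 0.

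Genes with the most similar pattern were sought over the 17 libraries after each group's mean was removed, among 12007 genes tested in all comparisons. Against the mean profile of the 9 dorsal genes tested in all comparisons, the highest Pearson correlations were those of Tcp11l1 (0.95), Ppm1e (0.95), Rims2 (0.94), Srgap3 (0.94) and Ankrd6 (0.94). They describe shared variation among embryos of a group, in which the wide spread of the E8.5 embryos weighs most, and no test is attached to them.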

How the data were processed

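Each of 17 whole embryos gave 1 library. Per the labels' protocols, embryos were frozen singly during genotyping and purified at once, with the TruSeq RNA v2 kit and a NovaSeq instrument. The authors deposited TPM per gene symbol. The submitters' processing notes name GRCm39 (mm39), and the software is not given in the sources used here. The kit does not mark strand, so Msx1 and Msx1os, Gdf7 and Ldah, Zic1 and Zic4, Pax7 and Gm46873, and Msx2 and Gm33763, which overlap in the reference annotation, may share reads.

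TPM was used as log2(TPM + 1), which understates changes of low genes. Each comparison tested genes whose TPM was 1 or more in 4 or more of its libraries, with limma 3.58.1 (R 4.3.3, mean-variance trend, Benjamini-Hochberg adjustment over all genes tested, threshold 0.05), and the procedure was tested on simulated data. Each experiment was fitted alone, the wild types together, and the difference of effects over all libraries. Groups came from the sample titles, and p-values measure the spread between these embryos. The members and the 15 gene lists were chosen with earlier results of these data known. List genes are named if called, otherwise up to 3 with the smallest p (not all are printed). Prl8a2 and the E8.5 relations were chosen after values were seen.

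Alternatives tried were no filter or a filter on a mean TPM of 5, a pseudocount of 0.1, median-of-ratios scaling, no trend, all libraries in 1 fit, the pan-neural or Y-linked mean as covariate, a replicate block, and leaving out every library in turn. Leaving out Disp1_WT 3 with Disp1_CS_INDEL 1, or with Myo10_WT 1, was added after seeing the data.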

Additional observations from a re-analysis of the deposited data

Results flagged for a closer look

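Of 40 combinations of a gene and a group searched for an embryo far from the rest of its group, 1 stood out. Msx2 in Disp1_CS_INDEL 2 was at 29.5 TPM, with the nearest of the other 3 at 33.5 TPM, a gap of 0.866 of the range of the group. Chance alone marks about 1 group in 20 by this measure.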

How the results depend on the processing

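In the Disp1 comparison 0 of 10 genes passed under every alternative, and the median log2 fold change stayed at 0.28 to 0.37 with each library left out in turn. The smallest limma adjusted p was 0.0969, for Pax3 after scaling, and Gdf7 changed sign in 1 of its 17 alternatives. The genes without overlap numbered 5 to 7 with each library left out, 7 without Disp1_WT 3. In the Myo10 comparison 0 passed under every alternative. The median ran from -0.33 without Myo10_WT 3 to -0.05 without Myo10_WT 1, and reversed to 0.08 with the pan-neural mean as a covariate. Without Myo10_WT 3, 1 gene, Pax3, did not overlap as lower, and 0 to 1 did over the libraries left out.

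Between the ages, the median was 1.78 with a pseudocount of 0.1 and 0.82 after scaling, and 1.15 to 1.51 with each library left out. After scaling 5 genes did not overlap, and Msx1 (-0.27), Msx2 (-0.10) and Zic5 (-0.07) reversed. The pan-neural mean itself separates the ages, and with it as a covariate the median was -1.86 and 1 gene passed, Msx3, as lower. Pax3 (-2.51), Pax7 (-2.77), Msx3 (-5.29), Zic1 (-1.75), Zic5 (-1.14), Wnt1 (-4.81) and Gdf7 (-1.96) reversed in that fit.

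Replicate numbers do not pair the embryos: same-numbered deviations correlated at -0.24 to 0.35 in the Disp1 comparison, -0.29 to 0.46 in the Myo10 comparison and -0.07 to 0.21 between the ages, and not every embryo correlated best with its own number. With the replicate block 0, 0, 10 and 0 genes passed in the Disp1, Myo10 and age comparisons and the difference of effects, as without it, and the medians were 0.33, -0.20, 1.31 and 0.46. Myo10_m1J 5 has no partner and drops out of the blocked Myo10 value. The median difference of effects ran from 0.33 to 0.58 with each library left out, and 0 genes passed under every alternative. TPM keeps no depth, so what depth limits is unknown.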
